A study of Homo sapiens with 12 samples.

Results

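The 8 genes HAVCR1, LCN2, CLU, SPP1, SOX9, CST3, VCAM1 and CD24 are markers of injury or repair of the kidney tubule, and they were chosen by name from the 58735 genes of the count table. They were measured by RNA-seq in HK-2, an immortalized cell line of the human proximal tubule, in 12 samples that fell into 4 groups of 3. The control group was labelled as given water. The other groups were treated for 48 h with the iodinated contrast medium iohexol at 75 mg I/mL, the platinum drug cisplatin at 5 μM or the glycopeptide antibiotic vancomycin at 4 mM, and the study asked which genes these drugs change in tubule cells. All 12 samples came from the 1 cell line, and the labels do not say whether the replicates were separate cultures, so the p-values measure the spread between these samples. In RNA from whole cultures, fewer cells with a transcript and less of it per cell cannot be told apart.

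When the proximal tubule is injured, its surviving cells lose specialized functions and switch on genes of defense, debris clearance and repair. HAVCR1 (kidney injury molecule-1) is a surface receptor for dying cells, LCN2 (NGAL) binds bacterial siderophores and thereby iron, SPP1 (osteopontin) and CLU (clusterin) are secreted, and several of these proteins are measured in urine as signs of tubule damage. CST3 (cystatin C) is better known as a marker of filtration, VCAM1 and CD24 are surface proteins of injured or progenitor-like tubule cells, and SOX9 is a transcription factor of regenerating tubules.

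The total count per sample lay between 14057282 and 18177109, and 3 counts corresponded to 0.177 to 0.218 CPM (counts scaled to the size of the library). All CPM values were scaled by TMM factors, which were 0.961 to 0.976 in the control, 1.02 to 1.04 in the iohexol, 1.12 to 1.13 in the cisplatin and 0.885 to 0.897 in the vancomycin samples. With library size alone in place of TMM, the median change over the genes tested moved by 0.07 for iohexol, by 0.22 for cisplatin and by -0.08 for vancomycin on the log2 scale. The third iohexol sample stood farther from its replicates (chi-square per degree of freedom of 15.5 and 14.6) than the other iohexol samples stood from each other (3.56). Without it, the same number of markers passed in each direction with iohexol. The first control sample (7.30 and 9.75, beside 3.07 between the other controls) also stood apart. So did the second vancomycin sample (11.9 and 8.77, beside 5.78). Leaving out either kept the number of markers that passed in each direction against control.

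The markers of the cell type were present in part. PAX8, a transcription factor of the kidney lineage, averaged 371.7 CPM in the control samples, GGT1 (a brush border enzyme) 189.5 CPM and CDH6 (a cadherin of the proximal tubule) 520.0 CPM. The endocytic receptor gene LRP2 and the organic anion transporter gene SLC22A6 had 0 counts in every control sample, which allows up to 0.218 CPM in the shallowest of them. The 9 leukocyte markers together reached 1.74 to 2.24 CPM in the control, 2.97 to 3.27 CPM in the iohexol, 1.11 to 1.95 CPM in the cisplatin and 3.94 to 5.76 CPM in the vancomycin samples, and PTPRC, the pan-leukocyte marker, had at most 5 counts in any sample. The 6 endothelial markers together reached at most 4.28 CPM, and the 6 markers of the distal nephron at most 3.67 CPM. The 5 podocyte markers were not near the floor, at a sum of 117 to 136 CPM in the control samples. Of these, SYNPO averaged 116.6 CPM and PODXL 12.6 CPM.

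**Figure D1:**
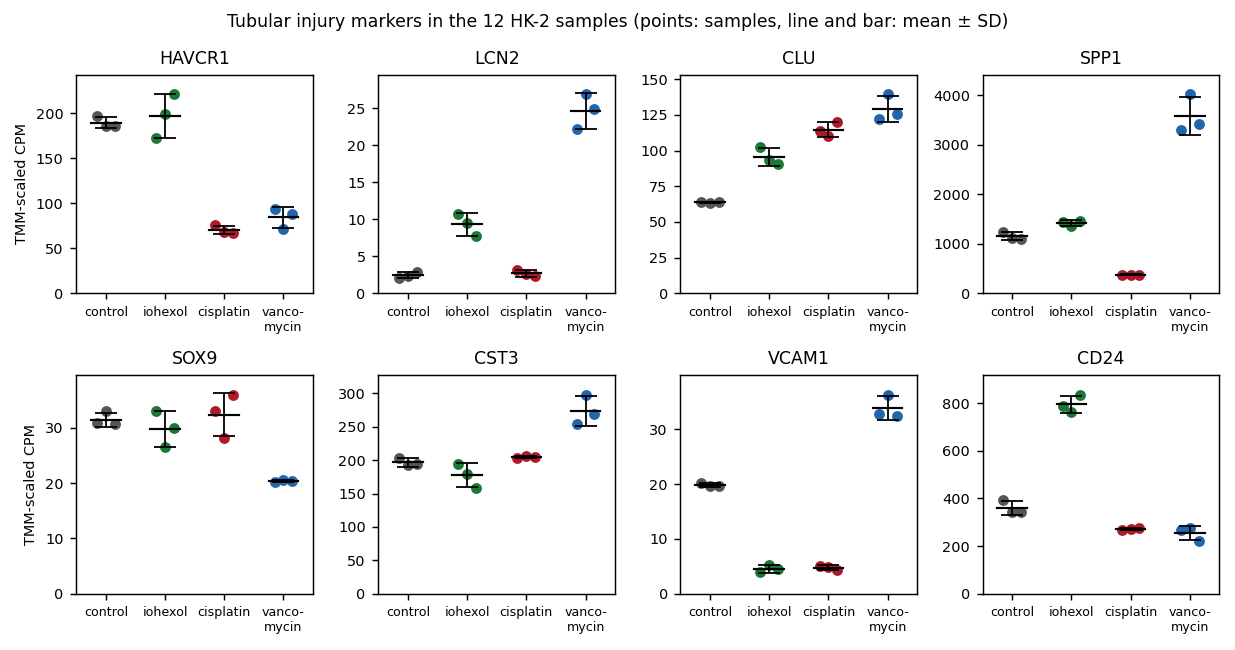
TMM-scaled CPM of the 8 markers in each of the 12 samples (points), with the mean and SD of each group (line and bars). LCN2 and SPP1 are highest with vancomycin, at a mean of 24.6 and 3576 CPM, CD24 is highest with iohexol at 795.2 CPM, and VCAM1 is lowest with iohexol and cisplatin at 4.55 and 4.77 CPM.

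Scaled by the deposited gene length, the markers differed widely in level before any drug. This length is 1 value per gene and need not be that of its main transcript, so the order below depends on it. In the control samples SPP1 was the highest at 1823 ± 120 TPM (counts scaled by gene length and library; SD, n = 3), above 99.7% of the detected genes, followed by CD24 at 426 ± 33.3 TPM, HAVCR1 at 323 ± 11.1 TPM and CST3 at 195 ± 7.03 TPM. CLU at 35.4 ± 0.773 TPM and SOX9 at 29.3 ± 0.775 TPM lay in the middle, and VCAM1 at 12.0 ± 0.281 TPM and LCN2 at 5.61 ± 1.03 TPM were the lowest. No neighbours in this order overlapped between their control samples. By TPM, SPP1 was first and CD24 the next in every group. By CPM, which takes no account of length, SPP1 was also first in every group, but CST3 stood above CD24 with vancomycin (273.9 and 256.0 CPM). SOX9 was last of the 8 with vancomycin at 16.3 ± 0.444 TPM, and VCAM1 was last by TPM with iohexol and cisplatin. By CPM, LCN2 was last with cisplatin (2.72 CPM, beside 4.77 CPM for VCAM1).

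**Figure D2:**
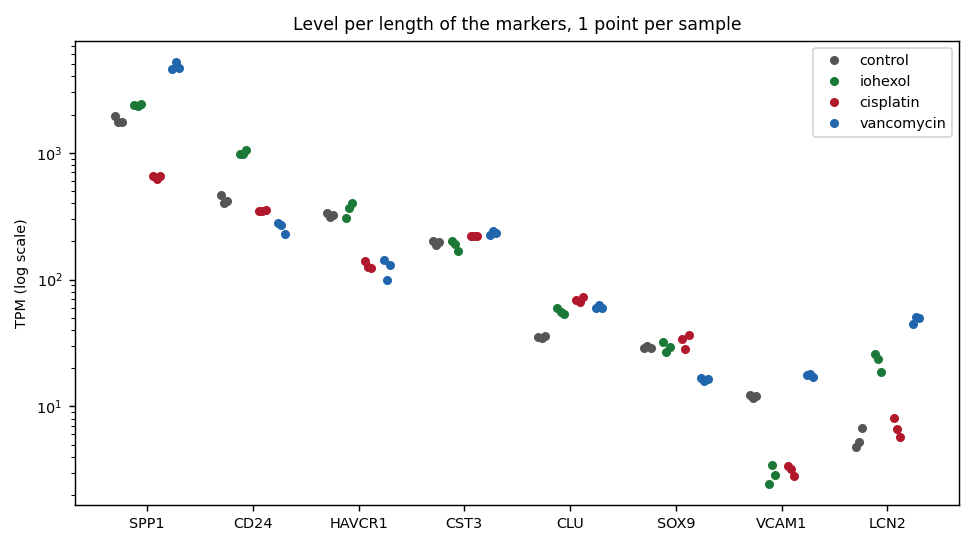
TPM of the 8 markers on a log scale, 1 point per sample, in the order of their control levels. SPP1 is on top in every group, from 644 TPM as the mean of the cisplatin samples to 4827 TPM as that of the vancomycin samples, and LCN2 goes from 5.61 TPM in the control to 48.3 TPM with vancomycin.

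All 8 markers passed the filter on low counts in the 3 comparisons with control. A gene was counted as passed with an adjusted p under 0.05 (edgeR's quasi-likelihood test, Benjamini-Hochberg over all genes tested) and as a differentially expressed gene (DEG) if its log2 fold change was also above 1 or below -1. With iohexol, 4 of the 8 markers rose, where 11.2% of all 15657 genes tested passed as higher, 1 fell (background 9.77%) and 3 did not pass. Cisplatin raised 1 marker (background 29.2% of 15876 genes), lowered 4 (background 30.6%) and left 3 not passing. Vancomycin raised 5 markers (background 29.0% of 15819 genes) and lowered 3 (background 28.8%). As DEGs, 2 markers were higher and 1 lower with iohexol (backgrounds 4.02% and 1.25%) and 2 higher and 1 lower with vancomycin (10.8% and 7.65%). With cisplatin 3 markers were lower DEGs (background 8.72%), and CLU, the marker that rose, was below the DEG threshold at 0.84 (background of higher DEGs 7.62%). The median log2 fold change of the markers was 0.20, -0.18 and 0.58 for iohexol, cisplatin and vancomycin, while that over all genes tested was 0.01, 0.01 and -0.01. The 3 comparisons share their control samples. The markers and the lists below were chosen with earlier results of these data known, so their counts beside the background are a description.

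CLU passed in the same direction, higher, in all 3 comparisons. VCAM1 passed in all 3 but fell with iohexol and cisplatin and rose with vancomycin. SPP1 also passed in all 3, rising with iohexol and vancomycin and falling with cisplatin, as did CD24, which rose with iohexol and fell with the other drugs. HAVCR1 and LCN2 passed in a pair of comparisons each, and SOX9 and CST3 passed with vancomycin only among the comparisons with control.

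**Figure D3:**
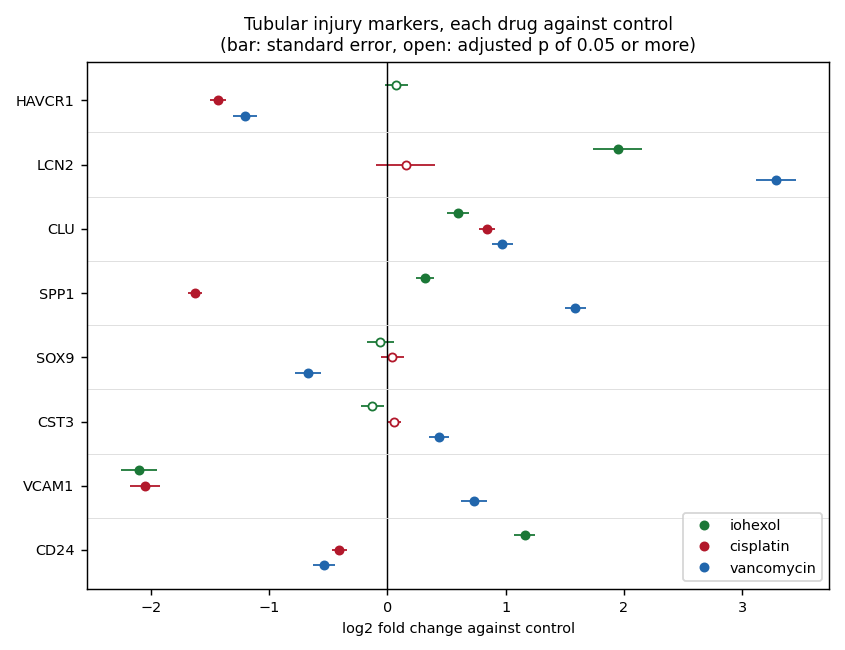
Log2 fold change of each marker against control (x axis) for each drug, with its standard error as a bar, filled where the adjusted p was under 0.05. CLU lies to the right of 0 for all 3 drugs (0.60, 0.84 and 0.97), whereas SPP1 lies at 0.32 with iohexol, -1.63 with cisplatin and 1.59 with vancomycin.

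HAVCR1 (ENSG00000113249, chromosome 5, 157029413 to 157059119, GRCh38, minus strand) was lower with cisplatin and vancomycin and did not pass with iohexol. Its level was 196.5, 186.1 and 186.3 CPM in the control samples and 172.1, 199.0 and 220.8 CPM with iohexol. The iohexol values lay on both sides of the control values. With cisplatin it measured 75.4, 68.1 and 67.2 CPM, and with vancomycin 93.8, 71.4 and 88.6 CPM, so that every sample of these groups was below every control sample. The log2 fold change was -1.43 with cisplatin (SE 0.07, adjusted p = 8.21e-12), -1.20 with vancomycin (SE 0.10, adjusted p = 3.71e-10) and 0.07 with iohexol (SE 0.10, adjusted p = 0.637, 95% interval -0.14 to 0.29). Of the 31-base sequences of HAVCR1, 11.2% also occur in another gene, and its pseudogene HAVCR1P1 had at most 9 counts per sample.

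Shedding releases the part of HAVCR1 outside the cell. Among the 4 sheddase genes listed, the metalloproteinase gene ADAM17 fell with cisplatin (log2 fold change -0.86) and rose with vancomycin (0.50), ADAM10 fell with both (-1.20 and -0.93), and MMP14 fell with iohexol (-0.80) and cisplatin (-0.78) and rose with vancomycin (1.92). MMP14 had 237.5 ± 27.9 CPM in the control and 925.3 ± 77.0 CPM in the vancomycin samples (SD, n = 3). MMP3 had 0 to 1 counts in the control and 15 to 20 in the vancomycin samples. In all, 1 of 3 sheddases tested fell with iohexol (background 9.77%) and the other 2 did not pass. With cisplatin 3 of 3 fell (background 30.6%), and with vancomycin 3 of 4 rose and 1 fell (backgrounds 29.0% and 28.8%). Of these, MMP3 passed the filter on low counts only through its vancomycin samples. The filter itself thus favoured its rise, which says little beside the background. Of the receptors related to HAVCR1, TIMD4, another receptor for dying cells, fell with cisplatin from 27 to 35 counts to 1 to 8 counts, and HAVCR2 had at most 12 counts in any sample. STAT3, a transcription factor reported to act on HAVCR1 and LCN2, rose with cisplatin (0.58) and gave adjusted p values of 0.075 and 0.0574 with iohexol and vancomycin, and the checkpoint kinase gene CHEK1 fell with vancomycin (-0.63).

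Over the 12 samples, the protein-coding gene most like HAVCR1 of 12564 compared was EGFR, the epidermal growth factor receptor, with a Pearson r of log2 CPM of 0.994. The group means of EGFR were 521.2 CPM (control), 591.1 CPM (iohexol), 140.3 CPM (cisplatin) and 194.1 CPM (vancomycin). NCOA6, a nuclear receptor coactivator, and ABCC4, an efflux pump, followed (r of 0.992 and 0.990). These values describe 12 points in 4 groups and 2.73% of the genes compared had an r over 0.9 with HAVCR1.

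LCN2 (ENSG00000148346, chromosome 9, 128149071 to 128153455, plus strand) rose with iohexol and vancomycin. The control samples held 29, 37 and 44 counts (2.10, 2.32 and 2.89 CPM), and the vancomycin samples 354, 398 and 404 counts (22.2, 26.9 and 24.9 CPM). Iohexol samples stood between them at 10.8, 9.46 and 7.75 CPM, above every control sample and below every vancomycin sample. With cisplatin LCN2 measured 3.21, 2.65 and 2.30 CPM, which overlapped the control values. The log2 fold change was 3.28 with vancomycin (SE 0.17, adjusted p = 5.4e-14), 1.95 with iohexol (SE 0.21, adjusted p = 4.86e-05) and 0.15 with cisplatin (SE 0.25, adjusted p = 0.612, 95% interval -0.37 to 0.67). The ratio of the highest to the lowest group mean in CPM, 10.1, was the largest of the 8 markers.

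The bases before the start of LCN2 and of VCAM1 are shown because both genes are textbook targets of NF-kB, the transcription factor of inflammation, and moved with the drugs in different ways. Both are the 250 bases before the RefSeq start in GRCh38.p14, printed 5′ to 3′ on the gene's own strand, the plus strand. Capitals mark matches of 7 motifs searched on both strands: the AP-1 site TGANTCA, the STAT site TTCNNNGAA, the C/EBP site TTGCNNAA, the heat shock pair GAANNTTC, the SOX site CATTGT, the TATA box TATAAA and the NF-kB site.
LCN2, chr9:128149203-128149452: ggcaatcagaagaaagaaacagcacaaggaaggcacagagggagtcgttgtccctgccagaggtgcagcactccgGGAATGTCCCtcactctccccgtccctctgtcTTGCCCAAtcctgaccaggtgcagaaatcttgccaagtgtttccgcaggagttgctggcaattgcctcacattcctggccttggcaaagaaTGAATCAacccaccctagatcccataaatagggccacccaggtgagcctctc
VCAM1, chr1:100719492-100719741: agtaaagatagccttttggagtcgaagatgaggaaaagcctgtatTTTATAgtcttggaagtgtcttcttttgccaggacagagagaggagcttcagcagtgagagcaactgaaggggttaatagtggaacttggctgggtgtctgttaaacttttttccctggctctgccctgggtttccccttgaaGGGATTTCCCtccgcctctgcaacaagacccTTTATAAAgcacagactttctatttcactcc
In LCN2 the capitals are, from left to right, an NF-kB match on the other strand (bases -175 to -166 from the start), a C/EBP match (-143 to -136) and an AP-1 match (-52 to -46). In VCAM1 they are a TATA match on the other strand (-205 to -200), an NF-kB match (-62 to -53) and 2 TATA matches that overlap each other on opposite strands (-31 to -26 and -29 to -24). Of 35116 RefSeq promoters, 9.96% held an NF-kB, 9.05% a C/EBP, 6.57% an AP-1, 6.57% a STAT, 5.78% a heat shock, 9.29% a SOX and 10.7% a TATA match in such a window. Entries were found for 6 of the 8 markers, SOX9 and CLU having none in the table used. CD24 held 2 NF-kB matches before each of a pair of its starts, whose windows overlap and share a match, and none before another start. The windows of HAVCR1, SPP1 and CST3 held none of the 7 motifs. A match of letters is a description of the window and shows no binding.

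Among the genes of factors that act on LCN2, CEBPB and CEBPD, which encode C/EBP factors, both rose with iohexol (log2 fold changes 0.36 and 0.50) and with vancomycin (1.73 and 1.30). With cisplatin CEBPB rose (0.41) and CEBPD fell (-0.62). The NF-kB subunit gene RELA rose with cisplatin (0.48) and vancomycin (0.35), and NFKBIZ, whose protein is a nuclear partner of NF-kB on the LCN2 gene, fell with cisplatin (-0.96). NFKBIA, the feedback inhibitor of NF-kB, rose with iohexol (0.34) and vancomycin (0.44) and fell with cisplatin (-0.85). Of all 16 listed regulators of the markers, 3 rose and 5 fell with iohexol (backgrounds 11.2% and 9.77%). With cisplatin 6 rose and 8 fell (29.2% and 30.6%), and with vancomycin 8 rose and 3 fell (29.0% and 28.8%).

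MMP9, the gelatinase that LCN2 binds, fell with iohexol (log2 fold change -1.41, adjusted p = 0.0204) and cisplatin (-1.63, adjusted p = 0.00169) and rose with vancomycin (3.25, SE 0.20, adjusted p = 1.95e-12) by edgeR's test. Control samples had 19 to 26 counts of MMP9, iohexol samples 6 to 11, cisplatin samples 5 to 9 and vancomycin samples 199 to 246. SLC22A17, a receptor for LCN2, rose with vancomycin (1.25) from 28 to 37 counts in the control samples to 66 to 98. PTGDS, a lipocalin that makes a prostaglandin, was the 1 other lipocalin of 11 listed that could be tested; it rose with iohexol (0.95) and vancomycin (2.75) and fell with cisplatin (-1.33). The genes most like LCN2 over the 12 samples were ACP5, an acid phosphatase, RETREG2 and the interferon-inducible GBP2, with r of 0.987, 0.986 and 0.984, and 1.93% of genes had an r over 0.9.

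SPP1 (ENSG00000118785, chromosome 4, 87975650 to 87983426, plus strand) had a ratio of the highest to the lowest group mean of 9.55, between vancomycin and cisplatin. Over the 4 groups this was the largest ratio after that of LCN2, whose lowest group was the control. The control samples had 1245, 1124 and 1095 CPM and the iohexol samples 1447, 1360 and 1457 CPM. Cisplatin samples lay at 381, 363 and 380 CPM and vancomycin samples at 3300, 4014 and 3415 CPM. None of the 4 groups overlapped another. The log2 fold change was -1.63 with cisplatin (SE 0.06, adjusted p = 4.29e-13), 1.59 with vancomycin (SE 0.09, adjusted p = 3.45e-13) and 0.32 with iohexol (SE 0.08, adjusted p = 0.0153). The iohexol call rested on the controls: without control replicate 2 or 3 the adjusted p was 0.126 and 0.0959, with log2 fold changes of 0.28 and 0.26.

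SPP1 binds integrins and CD44 on neighbouring cells. The integrin genes ITGB6, ITGB3, ITGAV and ITGB1 all fell with cisplatin, by 2.81, 1.39, 0.99 and 0.77 on the log2 scale, and so did CD44 (-0.41). ITGB6 had 539 to 653 counts in the control and 82 to 109 in the cisplatin samples. With vancomycin ITGA5 rose (1.16) and ITGB6 fell (-1.24), and with iohexol ITGB3 rose (0.39) and ITGB1 and CD44 fell (-0.57 and -0.81). Of the binding partners and receptors of all markers, 2 rose and 5 fell among 14 tested with iohexol (backgrounds 11.2% and 9.77%). Among 13 with cisplatin, 11 fell (background 30.6%) and the other 2 did not pass. Among 14 with vancomycin, 5 rose and 1 fell (backgrounds 29.0% and 28.8%). The median log2 fold change of the partners with cisplatin was -1.35, beside 0.01 for all genes. RUNX2, a transcription factor that acts on SPP1 in bone, fell with iohexol (-1.44) and cisplatin (-0.59). The other 4 genes of the SIBLING family, the phosphoproteins of bone and tooth to which SPP1 belongs, summed to at most 0.246 CPM in any sample. TCEA3, GBE1 and NRP2 were the genes most like SPP1 (r of 0.995, 0.995 and 0.992, with 5.54% of genes over 0.9).

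**Figure D4:**
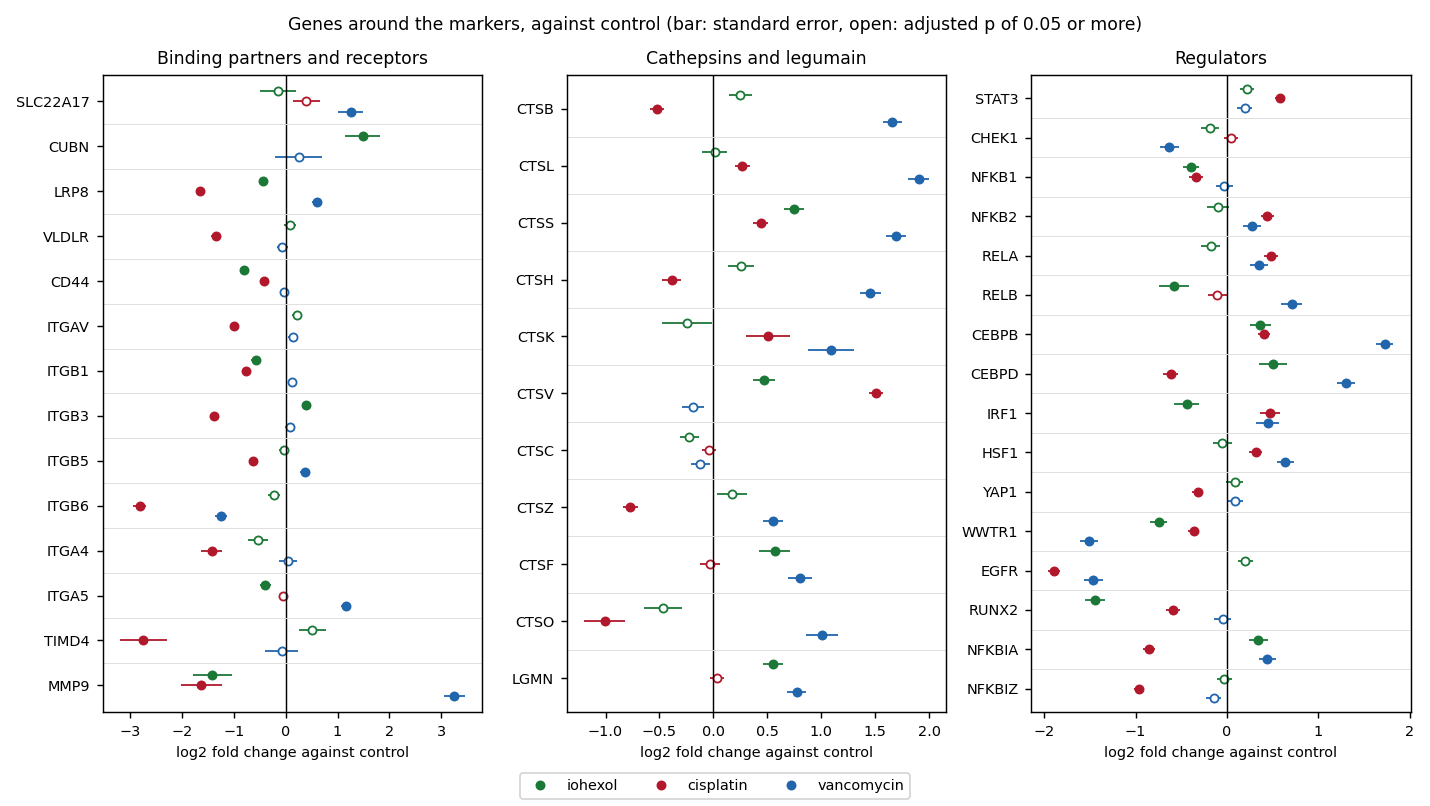
Log2 fold change against control (x axis) of the binding partners, cathepsins and legumain, and regulators of the markers, with the standard error as a bar and filled points for an adjusted p under 0.05. With cisplatin 11 of 13 partners lie to the left as filled points (background 30.6% of all genes tested). With vancomycin 9 of 11 cysteine protease genes lie to the right as filled points (background 29.0%).

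CLU (ENSG00000120885, chromosome 8, 27596917 to 27615031, minus strand), a chaperone outside the cell that keeps damaged proteins soluble, was higher with every drug. Control samples had 64.3, 63.5 and 63.9 CPM. Its values were 102.3, 93.2 and 90.8 CPM with iohexol, 113.8, 110.2 and 120.2 CPM with cisplatin and 122.4, 139.3 and 125.5 CPM with vancomycin. Every drug sample was above every control sample. The log2 fold change was 0.60 with iohexol (SE 0.09, adjusted p = 0.000675), 0.84 with cisplatin (SE 0.07, adjusted p = 6.69e-09) and 0.97 with vancomycin (SE 0.09, adjusted p = 2.12e-09). With library size alone the cisplatin value was 1.06, which would make CLU a DEG.

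Receptors for CLU moved with cisplatin. LRP8 and VLDLR, which encode lipoprotein receptors, fell with it (-1.65 and -1.35), while with vancomycin LRP8 rose (0.60) and VLDLR did not pass (-0.06, adjusted p = 0.622). HSF1, the heat shock factor that acts on CLU, rose with cisplatin (0.32) and vancomycin (0.64) and gave -0.05 with iohexol (adjusted p = 0.772). Among all genes, HIST1H1C (a linker histone), AOC3 (an amine oxidase) and BEX2 were most like CLU, at r of 0.983, 0.974 and 0.972, and 0.565% of genes had an r over 0.9, the lowest share for any of the 8 markers. AOC3 averaged 0.533 CPM in the control samples and 1.56, 2.70 and 3.40 CPM with iohexol, cisplatin and vancomycin.

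CST3 (ENSG00000101439, chromosome 20, 23626706 to 23638473, minus strand), the secreted inhibitor of cysteine proteases, was the steadiest of the markers, with a ratio of 1.54 between its highest and lowest group. It measured 203.5, 192.2 and 194.0 CPM in the control and 254.2, 298.0 and 269.4 CPM in the vancomycin samples. The vancomycin samples were all above the control samples, with a log2 fold change of 0.44 (SE 0.09, adjusted p = 0.000141). With iohexol CST3 had 194.6, 179.2 and 159.0 CPM and with cisplatin 203.4, 205.5 and 205.3 CPM, which both overlapped the control values. These gave log2 fold changes of -0.13 (adjusted p = 0.379, 95% interval -0.33 to 0.08) and 0.06 (adjusted p = 0.402, 95% interval -0.06 to 0.18). With library size alone the cisplatin value was 0.28 and passed (adjusted p = 0.000382).

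The proteases that cystatins inhibit moved more than CST3 did in log2 terms with vancomycin. The cathepsin genes CTSL, CTSS and CTSB rose by 1.90, 1.69 and 1.66 on the log2 scale, and CTSB went from 376.5 ± 34.3 CPM in the control to 1224 ± 76.0 CPM in the vancomycin samples (SD, n = 3). In that comparison 9 of 11 cysteine protease genes tested rose (background 29.0%) and the other 2 did not pass. The median log2 fold change of the 11 was 1.01, beside -0.01 for all genes. With cisplatin 4 rose and 4 fell (backgrounds 29.2% and 30.6%). CTSV (1.51) and CTSS (0.44) were among the higher and CTSZ (-0.77) and CTSB (-0.52) among the lower. With iohexol 4 rose (background 11.2%), including CTSS (0.74) and LGMN, which encodes legumain (0.55), and the other 7 did not pass. CSTB, an inhibitor of cathepsins inside the cell and the 1 other cystatin of 8 listed that could be tested, rose with vancomycin (1.06) and fell with cisplatin (-0.44). The genes most like CST3 were NXT1, SSR4 and EMP3 (r of 0.986, 0.985 and 0.983, with 4.31% of genes over 0.9).

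VCAM1 (ENSG00000162692, chromosome 1, 100719742 to 100739045, plus strand), the adhesion molecule that holds leukocytes by integrins, fell with iohexol and cisplatin and rose with vancomycin. Control samples had 279, 313 and 298 counts, or 20.2, 19.6 and 19.6 CPM. Iohexol samples dropped to 3.87, 5.31 and 4.48 CPM and cisplatin samples to 5.09, 4.92 and 4.31 CPM, while vancomycin samples reached 32.9, 36.3 and 32.5 CPM. The iohexol and cisplatin samples overlapped each other and no sample of the other groups. The log2 fold change was -2.10 with iohexol (SE 0.15, adjusted p = 2.38e-06), -2.05 with cisplatin (SE 0.13, adjusted p = 2.76e-10) and 0.73 with vancomycin (SE 0.11, adjusted p = 5.38e-06). With iohexol this was the 14th lowest log2 fold change of the 15657 genes tested.

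Other adhesion molecules did not all follow VCAM1. ICAM1, whose protein binds other leukocyte integrins, rose with vancomycin (1.30) and gave -0.31 with iohexol (adjusted p = 0.123) and -0.14 with cisplatin (adjusted p = 0.151). L1CAM fell with cisplatin (-1.85) and rose with vancomycin (0.70), and ALCAM fell with both (-1.02 and -0.88). In the list of 11 adhesion molecules, of which 7 were tested, 1 rose (background 11.2%) and 6 did not pass with iohexol. With cisplatin 1 rose and 2 fell (backgrounds 29.2% and 30.6%), and with vancomycin 3 rose and 3 fell (29.0% and 28.8%). IRF1, an interferon regulatory factor that acts on VCAM1, fell with iohexol (-0.44) and rose with cisplatin (0.47) and vancomycin (0.44). The genes most like VCAM1 over the 12 samples were GOLM1, VIM and BHLHE40, with r of 0.992, 0.987 and 0.987 (1.68% of genes over 0.9). VIM encodes vimentin, the filament protein of mesenchymal cells, and its group means were 630.4 CPM (control), 347.0 CPM (iohexol), 364.1 CPM (cisplatin) and 839.8 CPM (vancomycin).

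CD24 (ENSG00000272398, chromosome 6, 106969831 to 106975627, minus strand), a lipid-anchored surface glycoprotein of tubule progenitor-like cells, rose with iohexol and fell with the other drugs. Its control values were 393.1, 344.8 and 342.5 CPM and its iohexol values 786.9, 763.3 and 835.4 CPM. With cisplatin it had 269.3, 270.6 and 274.7 CPM and with vancomycin 266.7, 277.9 and 223.3 CPM. All iohexol samples were above and all cisplatin and vancomycin samples below the control samples. The log2 fold change was 1.16 with iohexol (SE 0.09, adjusted p = 2.81e-06), -0.41 with cisplatin (SE 0.06, adjusted p = 2.65e-05) and -0.54 with vancomycin (SE 0.09, adjusted p = 3.55e-05). CD24 shares 9.74% of its 31-base sequences with other genes, and its pseudogene CD24P4 had 7 to 46 counts per sample beside 3625 to 12506 for CD24.

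PROM1 encodes CD133, the other surface marker by which such progenitor-like tubule cells are recognized. It moved in the same directions as CD24, with log2 fold changes of 2.43 with iohexol, -1.43 with cisplatin and -1.19 with vancomycin, from 55 to 67 counts in the control samples to 303 to 372 with iohexol. SIGLEC10, a receptor for CD24 on immune cells, had at most 9 counts in any sample. TSPAN12, CNNM1 and HLA-DMB were most like CD24 (r of 0.994, 0.985 and 0.978, with 1.04% of genes over 0.9).

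SOX9 (ENSG00000125398, chromosome 17, 72121020 to 72126420, plus strand), the transcription factor among the markers, was lower with vancomycin. Its control values were 30.8, 32.9 and 30.7 CPM and its vancomycin values 20.1, 20.6 and 20.4 CPM. The groups did not overlap, and the log2 fold change was -0.67 (SE 0.11, adjusted p = 1.55e-05). With iohexol SOX9 measured 33.0, 26.5 and 30.0 CPM and with cisplatin 33.0, 28.2 and 36.0 CPM, both on either side of the control values. The log2 fold changes were -0.06 with iohexol (adjusted p = 0.755, 95% interval -0.31 to 0.19) and 0.04 with cisplatin (adjusted p = 0.739, 95% interval -0.17 to 0.25). With library size alone the cisplatin value was 0.26 and passed (adjusted p = 0.0284). The antisense gene SOX9-AS1 had at most 8 counts in any sample.

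Upstream of SOX9, WWTR1, which encodes the Hippo pathway coactivator TAZ, fell with iohexol (-0.75), cisplatin (-0.37) and vancomycin (-1.51), and YAP1 fell with cisplatin (-0.32). EGFR fell with cisplatin (-1.89) and vancomycin (-1.46) and gave 0.20 with iohexol (adjusted p = 0.105). Of 13 genes listed as SOX9 targets, mostly collagens of cartilage and basement membrane, 1 of 6 tested fell with iohexol (background 9.77%). The other 5 did not pass. With cisplatin 5 of 6 fell (background 30.6%) and 1 did not pass, and with vancomycin 5 of 7 rose and 1 fell (29.0% and 28.8%). Among those that rose, COL9A1 had 3 to 6 counts in the control and 31 to 43 in the vancomycin samples. It passed the filter on low counts only through the latter, so the filter favoured its rise. COL4A1 and COL4A2, the type IV collagen chains, fell with cisplatin (-1.62 and -1.71). With vancomycin COL4A2 rose (0.45), while COL4A1 averaged 1208 CPM beside 1289 CPM in the control. The part of SOX9 in these values was not tested. Among the SOX genes 7 of 13 could be tested. SOX4 rose with iohexol (0.32) and fell with cisplatin (-0.63), SOX13 rose with cisplatin (1.01) and vancomycin (0.55), and SOX18 fell with iohexol (-1.46) and vancomycin (-0.49). In all, 1 SOX gene rose and 1 fell with iohexol (backgrounds 11.2% and 9.77%). With cisplatin 2 rose and 3 fell (29.2% and 30.6%), and with vancomycin 3 rose and 1 fell (29.0% and 28.8%). MTURN, PKP2 and TFAP2A were most like SOX9 (r of 0.955, 0.955 and 0.952, with 1.24% of genes over 0.9).

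The drugs were also compared with each other in a fit of all 12 samples with 17073 genes, in 3 pairs for each marker. Cisplatin against iohexol gave 2 markers as higher with cisplatin (background 26.0%) and 4 as lower (background 27.9%). The lower ones were SPP1 (log2 difference -1.92), LCN2 (-1.78), CD24 (-1.55) and HAVCR1 (-1.49), and the higher ones CLU (0.27, adjusted p = 0.00767) and CST3 (0.21, adjusted p = 0.0413). The CST3 difference lost its call when any 1 of 8 samples was left out, including each of the cisplatin samples (adjusted p up to 0.182, without the third iohexol sample), and under 3 other settings. SOX9 (0.12, adjusted p = 0.374, 95% interval -0.11 to 0.35) and VCAM1 (0.07, adjusted p = 0.738, 95% interval -0.25 to 0.38) did not pass.

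Vancomycin against iohexol gave 5 markers as higher with vancomycin (background 29.0%) and 3 as lower (background 27.6%). VCAM1 differed the most, with a log2 difference of 2.89 (SE 0.13, adjusted p = 5.29e-13), and LCN2 (1.40), SPP1 (1.33), CST3 (0.62) and CLU (0.43) were also higher. CD24 (-1.64), HAVCR1 (-1.22) and SOX9 (-0.55) were lower with vancomycin.

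Vancomycin against cisplatin gave 5 markers as higher with vancomycin (background 34.7%) and 1 as lower (background 30.0%). SPP1 differed by 3.25 (SE 0.08, adjusted p = 1.6e-16), the 6th smallest p of all genes in this contrast, LCN2 by 3.18 and VCAM1 by 2.82, and CST3 (0.42) and HAVCR1 (0.27, adjusted p = 0.0279) were also higher. SOX9 was lower (-0.67). CLU (0.17, adjusted p = 0.0664, 95% interval 0.00 to 0.33) and CD24 (-0.09, adjusted p = 0.381, 95% interval -0.26 to 0.09) did not pass. CLU did pass without iohexol replicate 3 (adjusted p = 0.0396) or vancomycin replicate 1 (adjusted p = 0.0454). This pair moved the most with the scaling, since its median log2 difference over all genes shifted by -0.33 with library size alone. Then 3 markers were higher and 2 lower: HAVCR1 turned to -0.07 and lost its call, CST3 at 0.08 did too, and CD24 passed as lower at -0.42. HAVCR1 also lost its call without cisplatin replicate 2 or 3 or vancomycin replicate 1 or 3 (adjusted p of 0.087 to 0.148).

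In the order of group means in CPM, the neighbouring groups whose difference did not pass were control and iohexol for HAVCR1, control and cisplatin for LCN2, cisplatin and vancomycin for CLU and CD24, iohexol and cisplatin for VCAM1, and, for SOX9 and CST3, the control group and its neighbours among the iohexol and cisplatin groups.

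Beside the 8 markers, 33 other genes are known as markers of tubule injury and repair, and 30 of them were tested in each comparison. With iohexol 6 rose and 12 fell (backgrounds 11.2% and 9.77%), with a median log2 fold change of -0.10. GDF15, a stress cytokine, rose by 2.15 (SE 0.11), from 103.4 ± 6.16 CPM in the control to 453.4 ± 64.1 CPM (SD, n = 3), and PROM1 rose as given above. MMP7, which encodes the matrix protease matrilysin, fell by 1.88 on the log2 scale. FABP1 and TFF3, markers measured in urine, had at most 3 counts in any sample.

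With cisplatin 13 of the 30 rose and 13 fell (backgrounds 29.2% and 30.6%, median -0.13). ATF3, a stress transcription factor, rose by 1.62 (SE 0.08) and CDKN1A, which encodes the cell cycle inhibitor p21, by 1.55 (SE 0.09). DCDC2 fell by 1.81 on the log2 scale and TIMP2, one of a pair of urinary markers of cell cycle arrest, by 0.95. Its partner IGFBP7, named here after its values were seen, fell by 0.62. The other drugs differed: TIMP2 averaged 359.1 CPM in the control, 508.5 CPM with iohexol and 440.3 CPM with vancomycin. IGFBP7 averaged 318.0, 287.0 and 693.5 CPM in the same groups.

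With vancomycin 18 of the 30 rose and 8 fell (backgrounds 29.0% and 28.8%, median 0.53). MMP7 rose by 2.83 (SE 0.10), from 562 to 774 counts in the control samples to 4682 to 5331, and CDKN1A rose by 2.62 (SE 0.10). CCN2 and CCN1, matricellular genes that respond to the Hippo pathway, fell (-2.42 and -2.19). CXCL8 and CCN1 had the highest levels of the list in the control samples; CXCL8, a chemokine for neutrophils, rose with cisplatin (0.61) and vancomycin (0.37) and gave 0.17 with iohexol (adjusted p = 0.279).

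**Figure D5:**
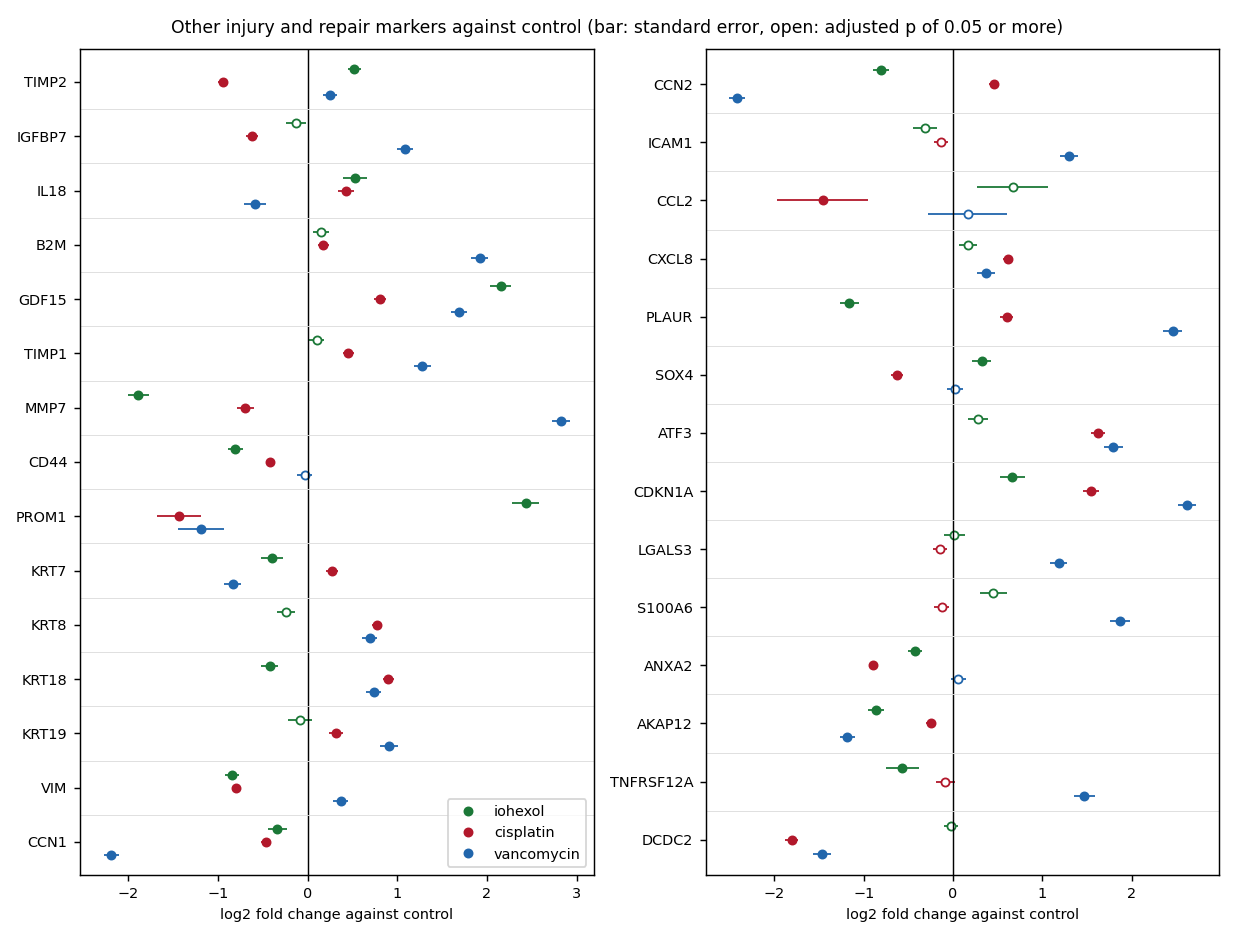
Log2 fold change against control (x axis) of 29 of the 30 tested genes among the other markers of tubule injury and repair, with the standard error as a bar and filled points for an adjusted p under 0.05. GDF15 lies to the right for all 3 drugs (2.15, 0.81 and 1.69), as does CDKN1A (0.66, 1.55 and 2.62), while CCN1 lies to the left (-0.34, -0.46 and -2.19).

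The genes of the proximal tubule moved beside the markers. Of 27 identity genes, 15 were tested with iohexol, and 8 rose and 3 fell (backgrounds 11.2% and 9.77%). With cisplatin 13 were tested, and 9 fell (background 30.6%) and 4 did not pass. With vancomycin 16 were tested, and 6 rose and 5 fell, near the backgrounds of 29.0% and 28.8%. With cisplatin CDH6 fell by 3.02 on the log2 scale and SLC4A4, the bicarbonate transporter of the tubule, by 2.68. The summed level of the list was 588 to 613 CPM beside 1645 to 1711 CPM in the control samples. A few genes held much of this sum: CDH6 averaged 520.0 CPM in the control and 64.1 CPM with cisplatin, and PAX8 371.7 and 131.4 CPM. GGT1 averaged 189.5 and 169.4 CPM. DPP4, a brush border peptidase, rose with vancomycin (1.97). Of 7 epithelial genes 6 were tested. With iohexol 2 fell (background 9.77%) and 4 did not pass. With cisplatin (backgrounds 29.2% and 30.6%) and with vancomycin (29.0% and 28.8%) 3 rose and 3 fell. The keratin genes KRT8 and KRT18 rose with cisplatin (0.77 and 0.90) and KRT18 and KRT19 with vancomycin (0.74 and 0.91), whereas EPCAM and CLDN1 fell with cisplatin (-1.51 and -0.39) and CLDN1 and TJP1 with vancomycin (both -1.25). Of the markers of other cell types, 1 of 6 distal nephron genes could be tested and did not pass with any drug, and 2 of 5 podocyte genes, SYNPO and PODXL, could be tested: both fell with iohexol and with cisplatin, and with vancomycin SYNPO fell and PODXL rose. PECAM1, the 1 endothelial gene tested, was at 16 to 22 counts in the control, 54 to 59 with iohexol and 0 to 3 with vancomycin. CD14, of the leukocyte list, was at 9 to 14 counts in the control, 23 to 28 with iohexol and 31 to 59 with vancomycin. The part of these lists in the values of the 8 markers was not tested.

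The 8 markers together made up 0.189% to 0.209% of a control library, 0.274% to 0.287% of an iohexol library, 0.118% to 0.123% of a cisplatin library and 0.369% to 0.432% of a vancomycin library. The groups did not overlap in this share, of which SPP1 held the most in every group.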

How the data were processed

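The authors deposited 1 table of read counts per gene for the 12 HK-2 samples, as whole numbers without normalization. The submitters' processing notes name CASAVA 1.8, fastp, HISAT2 2.0.5, featureCounts 1.5.0-p3 and DESeq2 1.20.0. How these were set, whether counting used strand, and the annotation behind the counts are not given in the sources used here. Of the 58735 genes, 58724 lie at the same positions in GENCODE release 29 on GRCh38. The table held 0 other per-sample columns.

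Samples were grouped by their labels. The 8 markers and all other lists were chosen with earlier results of these data known. Each drug was tested against control on the counts with edgeR 4.0.16 in R 4.3.3 (TMM, glmQLFit, glmQLFTest) in a fit of its own. Drugs were compared with each other in 1 fit of all 12 samples. Genes passed filterByExpr with at least 10 counts and a total of 15, and p-values were adjusted over all genes tested. The standard error is the log2 fold change divided by the square root of F. CPM values use the TMM factors of all 12 samples, log2 CPM a prior count of 2, and TPM the gene length of the table. No molecular identifiers are described, so counting limits cover counting error only. The steps recovered known changes in a test on simulated data. Those data had as many genes raised as lowered and the same spread setting for every gene. They therefore do not bear on the calls that moved with the scaling.

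Beside the markers the text names, for each list and drug, up to 2 passed genes with the smallest p in each direction, the 2 genes with the highest control TPM, the partners, proteases, sheddases and regulators of a marker, and the 3 protein-coding genes most like it by Pearson r of log2 CPM among genes of at least 1 CPM. The lists were other injury markers, partners, cysteine proteases, sheddases, regulators, SOX9 targets, related families and markers of cell types. Some genes that this rule covers are not reported here. Promoters came from RefSeq. Shared sequence was counted over 31-base words of the annotated transcripts.

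Alternatives were DESeq2 1.42.0, limma-voom (limma 3.58.1), RLE factors, library size only, no filter, 10 counts in every sample, the replicate number as a block, another choice of the groups in the fit, leaving out each sample, and CPM in place of TPM for the order of levels. Python 3.11.15 with matplotlib 3.10.9 drew the figures.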

Additional observations from a re-analysis of the deposited data

How the results depend on the processing

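Depth limited LCN2 the most, with 29 to 44 counts in the control samples, and 3 samples per group limit every p-value. The labels do not say whether the replicate numbers pair the samples. The deviations of same-numbered samples correlated at -0.279 to 0.137 over the 9 drug and control pairs. Differently numbered pairs were not compared, so these values do not decide it. With the replicate number as a block, CST3 alone of the markers changed its call (cisplatin against iohexol, adjusted p = 0.0591 by edgeR), which left 1 marker as higher there in place of 2. No filter and a separate fit of the 2 groups also gave 1, and leaving out single samples gave 1 to 2. With library size only, cisplatin gave 3 markers as higher in place of 1 and 1 as a higher DEG in place of 0 (also 0 with DESeq2), and vancomycin against cisplatin gave 3 as higher in place of 5 and 2 as lower in place of 1. The cause was not tested. Log2 values changed sign with library size only for SOX9 with iohexol (0.012) and, for vancomycin against cisplatin, for HAVCR1 (-0.066) and CLU (-0.17). Leaving out single samples turned 5 values that had not passed. HAVCR1 with iohexol ranged from -0.0088, without the third iohexol sample, to 0.16, and SOX9 from -0.14 to 0.011 with iohexol and from -0.037 to 0.13 with cisplatin. VCAM1 ranged from -0.038 to 0.19 for cisplatin against iohexol, and CD24 from -0.14 to 0.0090 for vancomycin against cisplatin. Of the 7 values that changed sign, HAVCR1 between vancomycin and cisplatin was the one that had passed, and it also lost its call with DESeq2 (adjusted p = 0.0501) and RLE factors (0.0504). Against control, LCN2, CLU, VCAM1, CD24, and SPP1 and HAVCR1 with cisplatin and vancomycin, kept every call they had by adjusted p under all 14 alternatives per drug. So did SOX9 and CST3 with vancomycin. CLU with vancomycin crossed the DEG threshold, at 1.01, with all 4 groups in 1 fit and without vancomycin replicate 1. Vancomycin then gave 3 markers as higher DEGs in place of 2. By CPM in place of TPM, the order of the markers stayed as it was with iohexol. It put CST3 above HAVCR1 in the control group, CLU above HAVCR1 and VCAM1 above LCN2 with cisplatin and with vancomycin, and CST3 above CD24 with vancomycin.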
